A study of Mus musculus with 8 samples.

Results

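Igfbp4 encodes insulin-like growth factor (IGF) binding protein 4. Every probe set that the array annotation maps to this gene alone was taken. Leaving controls aside, these were 6 of 22626 probe sets, all under gene ID 16010. The gene was chosen because its values on these arrays differed between immunized and naive mice, so its values are given as a description, with no test. RNA of lymph node cells isolated by flow cytometry was measured on Affymetrix arrays in naive B10.BR mice (3 arrays), 7 days after immunization of B10.BR mice (3 arrays) and 28 days after it (2 arrays). B10.BR is an inbred mouse strain. The labels name neither the immunogen, the sorted population nor the age of the mice, and give the same strain for all groups. They do not say whether replicates were separate animals, so that p-values measure only the spread between these arrays. Each deposited value is a ratio: the probe set's signal was divided by the median of its 8 signals, or by a fixed floor if the median was below it, as read from the values. A ratio of 1, or a log2 ratio of 0, therefore marks the probe set's own middle value only where its median reached the floor. For dimmer probe sets it marks the floor. In either case levels of different probe sets cannot be compared. Naive replicate 1 stood apart from the other naive arrays over all genes, so results that rest on it are given with and without it.

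IGF binding protein 4 is a secreted protein that binds the growth factors IGF-I and IGF-II and keeps them from their receptor. The protease PAPP-A (Pappa) cleaves it and releases the ligand, and the stanniocalcins (Stc1, Stc2) inhibit that protease. It also inhibits Wnt signalling through the Wnt receptors Lrp6 and Fzd8. In mice its transcript is abundant in naive T cells, which recirculate through lymph nodes until they meet antigen.

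The promoter of Igfbp4 is shown because the gene's RNA level is the quantity described below. The 250 bases before the annotated start, on the plus strand of chromosome 11 in build GRCm38.p6 (chr11:99040994-99041243, RefSeq), read as follows, with a TATA box match in capitals.
Igfbp4 promoter: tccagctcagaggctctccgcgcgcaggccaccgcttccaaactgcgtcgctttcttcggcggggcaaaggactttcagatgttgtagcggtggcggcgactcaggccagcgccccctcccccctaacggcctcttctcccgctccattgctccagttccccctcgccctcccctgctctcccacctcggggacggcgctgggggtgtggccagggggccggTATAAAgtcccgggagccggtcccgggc
The window was 69.2% G and C, against a median of 52.4% over 32851 RefSeq promoter windows of the same length. Of 6 motifs searched on both strands, the TATA box (TATAAA) matched once, starting 28 bases before the start, and the CACCC box bound by KLF factors matched once on the other strand. These letters occurred in 12.4% and 52.0% of all promoter windows. The GC box (GGGCGG), the CCAAT box, a FOXO site (GTAAACA) and a TCF/LEF site (CTTTGA) had no match in this window and occurred in 32.7%, 33.9%, 3.17% and 13.8% of windows. None of the motifs overlapped another in this window.

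The level of Igfbp4 was highest in naive cells, lowest at day 7 and intermediate at day 28, by the group means of all 5 probe sets that passed the filter on low values (2 or more arrays with a ratio of 1 or above). On probe set 1423756_s_at the ratio was 13.87, 7.585 and 7.735 on the naive arrays, 0.0563, 0.0463 and 0.0478 on the day 7 arrays, and 1.027 and 0.973 on the day 28 arrays. Every day 7 array lay below every day 28 array, and every day 28 array below every naive array. The mean log2 ratio was -4.32 ± 0.15 at day 7 and 3.22 ± 0.49 in naive cells (SD, n = 3 each), giving a log2 difference of -7.55. Day 7 was then 0.535% of the naive level. The mean log2 ratio at day 28 lay within 0.01 of 0 (SD 0.055, n = 2), a log2 difference of -3.22 from naive and 4.32 from day 7, or 10.7% of the naive level. Because the day 28 arrays were the middle pair of the 8 values, the scaling itself put them around 1 on this probe set.

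The second probe set of the same source sequence, 1423757_x_at, had ratios of 3.892, 4.966 and 5.711 in naive cells, 0.103, 0.101 and 0.132 at day 7, and 0.978 and 1.022 at day 28. Probe set 1437405_a_at had ratios of 11.84, 6.061 and 5.642 in naive cells, 0.0571, 0.188 and 0.0742 at day 7, and 1.445 and 0.555 at day 28. Probe set 1437406_x_at had ratios of 6.824, 5.09 and 8.012 in naive cells, 0.151, 0.239 and 0.157 at day 7, and 1.136 and 0.864 at day 28. The groups kept the same order without overlap on all of these. The highest naive array differed between probe sets, naive replicate 1 on 1423756_s_at and 1437405_a_at and naive replicate 3 on both x_at probe sets. In Affymetrix naming, the suffixes s and x mark probes that may also match other sequences, and a marks transcripts of 1 gene. The day 7 array farthest from its group was day 7 replicate 2 on 1437405_a_at, whose values span 1.72 log2 units at day 7 and 1.38 at day 28, against 0.28 and 0.08 on 1423756_s_at.

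Of the 2 remaining probe sets, both of transcript NM_010517, 1421992_a_at showed this pattern at smaller size and in part, and 1421991_a_at showed little of it. On 1421992_a_at the ratio was 1.057, 1.708 and 1.867 in naive cells, 0.68, 0.832 and 0.63 at day 7, and 0.943 and 1.114 at day 28. Day 7 lay below the other groups, whereas day 28 replicate 2 lay above naive replicate 1, so that day 28 and naive overlapped. Probe set 1421991_a_at did not pass the filter. Its ratio was 0.687 on naive replicate 2 and between 0.4 and 0.43 on every other array, and day 7 and naive overlapped. Its largest log2 difference between groups was -0.26, day 28 minus naive.

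**Figure D1:**
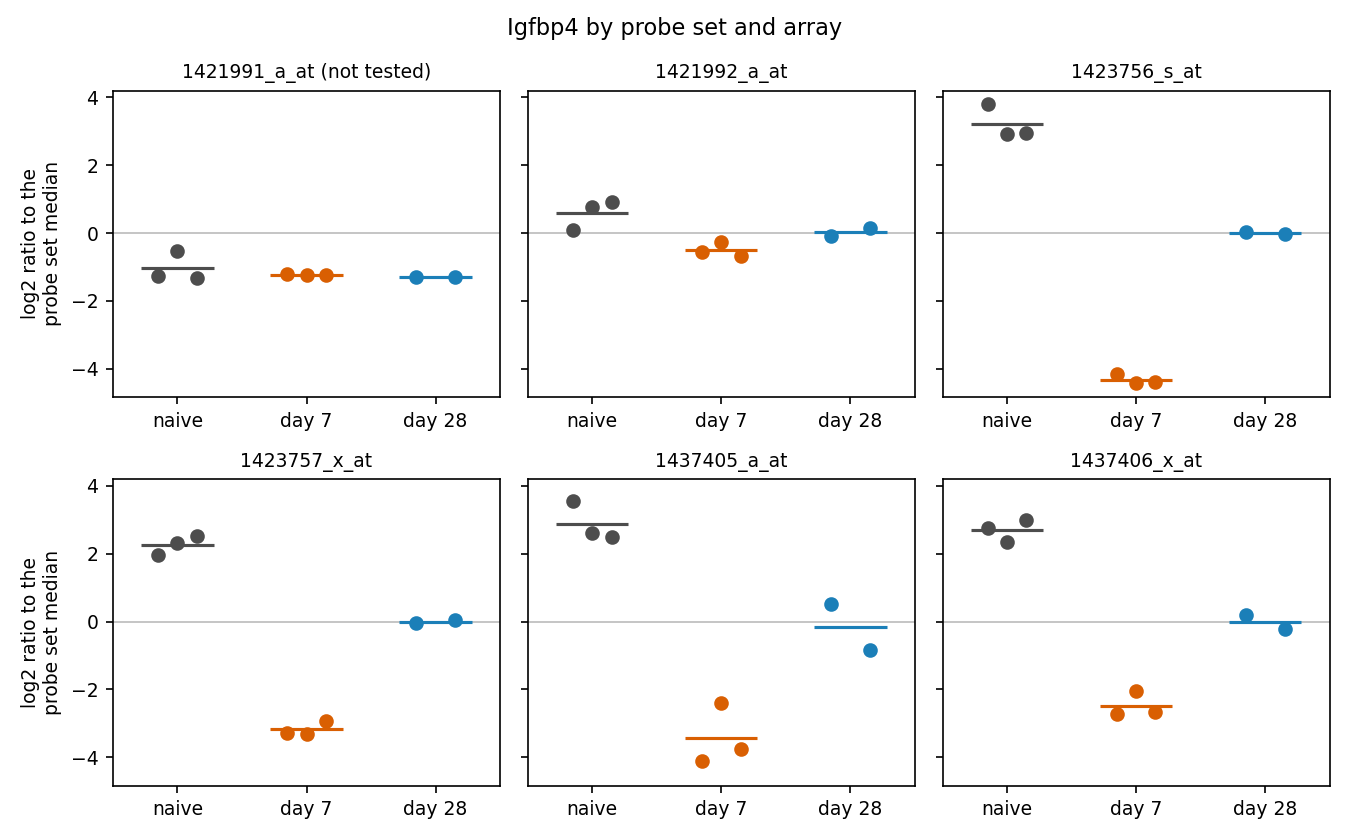
Log2 ratio of each Igfbp4 probe set (panels) on each array (points) by group (naive, day 7, day 28), with horizontal lines at group means. On the 4 probe sets from 1423756_s_at to 1437406_x_at the naive arrays lie above 1.9, the day 7 arrays below -2 and the day 28 arrays between -0.85 and 0.53, while the other 2 probe sets spread over at most 1.57 log2 units.

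Across the 5 tested probe sets, the log2 difference of day 7 from naive was -1.08, -7.55, -5.43, -6.32 and -5.19 in the order of the probe set numbers. The difference of day 28 from naive was -0.55, -3.22, -2.26, -3.05 and -2.72, and that of day 28 from day 7 was 0.53, 4.32, 3.17, 3.27 and 2.47. By day 28, between 47.6% and 58.3% of the log2 distance between day 7 and naive had been regained. That share was alike on 1421992_a_at (49.2%), whose differences were the smallest. Day 7 lay below naive without overlap on 5 of the 5 tested probe sets, where 8.61% of all 13042 tested probe sets did. Day 28 lay below naive without overlap on 4 of 5, where 9.88% of all did, and day 28 above day 7 on 5 of 5, where 15.2% of all did. Because the gene was chosen for this pattern, nothing is read from these counts.

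In the mean over probe sets, the spread within groups was small beside the distances between them. As a mean over the 5 tested probe sets, Igfbp4 had log2 ratios of 2.43, 2.19 and 2.37 in naive cells, -2.97, -2.50 and -2.88 at day 7, and 0.13 and -0.18 at day 28. The nearest day 7 and naive arrays were 4.69 log2 units apart, the nearest day 28 and naive arrays 2.06, and the nearest day 28 and day 7 arrays 2.31. Every neighbouring pair in the order naive, day 28, day 7 thus differed by more than the range within any group, which was at most 0.47. Single probe sets did not all share this. On 1437405_a_at the range at day 7 was 1.72, against 1.56 between the nearest day 28 and day 7 arrays. On 1421992_a_at day 28 and naive overlapped. Pairwise correlations over the 8 arrays between the 4 probe sets with large differences ran from 0.96 to 0.99 (Pearson's r, the same arrays in each, given as a description). With these 4, 1421992_a_at had r from 0.83 to 0.89 and the dim 1421991_a_at from 0.28 to 0.32.

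Set against all other probe sets, Igfbp4 ratios stood at the extremes of the day 7 and naive arrays. These are ranks of the ratio to each probe set's own median or floor, and not of the level of RNA. On each of the 3 day 7 arrays, 1423756_s_at had the lowest ratio of all 22626 probe sets. On day 7 replicate 1 the 4 lowest ratios of the array were 4 Igfbp4 probe sets, and on day 7 replicate 3 the lowest 3 were. On day 7 replicate 2, 1423757_x_at, 1437405_a_at and 1437406_x_at ranked 21, 104 and 189 from the lowest. On the naive arrays 1423756_s_at ranked 3, 27 and 10 from the top. By difference of group means, Igfbp4 probe sets held the 4 most negative places among the 13042 tested at day 7 against naive. There 1421992_a_at held place 502. At day 28 against naive the 5 tested probe sets held places 3, 7, 20, 48 and 2328. Because the gene was chosen for this pattern, nothing is read from these ranks.

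Over all genes the arrays also divided in a way that split the naive arrays but not the day 7 or the day 28 arrays. On the first principal component of all tested probe sets (43.6% of the variance), naive replicate 1 lay at -44.5, near the day 7 arrays (-71.7 to -55.4), and naive replicates 2 and 3 lay at 64.5 and 85.4, near the day 28 arrays (35.2 and 44.3). The median log2 ratio of the hybridization spike-in controls, bacterial transcripts added to each sample, divided the arrays the same way, from -1.70 to -1.03 on the first 4 and from 0.64 to 1.41 on the others. All day 7 arrays were thus of low and both day 28 arrays of high spike-in signal. Day 28 against day 7 cannot be told apart from this split, nor can day 7 against naive once naive replicate 1 is left out. The part of the split in the Igfbp4 levels was not tested. The Igfbp4 mean on naive replicate 1 (2.43) was the highest of the naive arrays. Among the arrays of low spike-in signal alone, day 7 minus naive replicate 1 was -5.22, against -5.11 over all arrays. Among those of high spike-in signal, day 28 minus naive replicates 2 and 3 was -2.31, against -2.36 over all arrays. As a measure of RNA quality, the 3' minus the 5' log2 ratio of Gapdh ran from 0.17 to 0.57 in naive cells, from -1.18 to 1.17 at day 7 and from -1.09 to 0.02 at day 28, and its part in the Igfbp4 differences was not tested. Arrays also differed in Xist, the RNA of the inactive X chromosome of females: on 1 of its probe sets the ratio was 0.0262, 0.0209 and 0.222 in naive cells, 3.591, 1.969 and 2.794 at day 7, and 0.0256 and 1.778 at day 28. All day 7 arrays thus lay above all naive arrays in Xist. Of the genes on the Y chromosome, Eif2s3y was high on naive replicate 1 (ratio 7.329) and day 28 replicate 1 (ratio 12.98), while all remaining arrays lay from 0.663 to 1.185. One probe set of Kdm5d reached 10.19 on naive replicate 1, while all remaining arrays lay from 0.633 to 0.818. The part of these differences in the Igfbp4 levels was not tested.

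Markers of the cell types that a lymph node sort could hold were read beside Igfbp4. In such pooled RNA, fewer cells of a type and less RNA per cell cannot be told apart. Of 10 general T cell markers, 9 were tested, and their median log2 ratio ran from -0.27 to 0.85 in naive cells, from -0.73 to 0.75 at day 7 and from -0.57 to 0.18 at day 28. The groups overlapped in T cell markers, whose summed ratio was 7.18 to 18.5 in naive cells, 7.21 to 17.2 at day 7 and 6.07 to 15.5 at day 28. After subtracting that median on each array, the Igfbp4 difference was -4.73 at day 7 against naive, -1.84 at day 28 against naive and 2.89 at day 28 against day 7. Of 11 B cell markers, 8 were tested, with median log2 ratios between -0.56 and -0.09 in naive cells, between -0.20 and 0.00 at day 7, and of 4.31 and 3.46 at day 28. Their summed ratio was 5.18 to 7.13 in naive cells, 6.89 to 7.59 at day 7 and 127 to 308 at day 28. The summed ratio of 7 tested CD8 T cell and cytotoxic markers was 4.26 to 6.12 in naive cells, 5.93 to 9.98 at day 7 and 18.5 to 45.7 at day 28. Both lists were thus highest at day 28, where Igfbp4 was intermediate. The median log2 ratio of the 5 plasma cell markers was -0.20, -1.18 and -0.92 in naive cells. On the day 28 arrays this median was 0.03 and -0.05, and on the day 7 arrays 0.99, 0.18 and 0.34. In this median the groups stood in the reverse order of Igfbp4 without overlap. The summed ratio of these plasma cell markers separated only day 7 (6.15 to 13.6). Naive cells (2.75 to 4.76) and day 28 (4.76 to 5.26) met in that sum, as rounded. The summed ratio of 4 tested monocyte and macrophage markers was 2.77 to 3.73 in naive cells, 3.77 to 5.6 at day 7 and 7.77 to 47.1 at day 28. That of 2 NK cell markers was 1.17 to 1.9, 1.52 to 5.19 and 3.8 to 11.1 in the same order of groups, that of 3 neutrophil markers 2.39 to 2.74, 2.08 to 16.2 and 2.2 to 11.5, and that of 3 erythroid markers 2.44 to 20.9, 2.25 to 2.66 and 3.54 to 4.43. The single tested dendritic cell marker ran from 0.981 to 1.17, from 0.78 to 1.14 and from 0.962 to 1.03. Each ratio is scaled to its own probe set, so that 1 marker can carry a summed ratio. The median log2 ratio of the monocyte and macrophage markers was -0.45 to -0.083 in naive cells, -0.089 to 0.37 at day 7, and 0.6 and 0.185 at day 28. By that median, day 7 overlapped both naive and day 28. The median of the erythroid markers lay between -0.21 and 0.083 in naive cells. The part of these lists in the Igfbp4 levels was not tested. Igfbp4 is also made by stromal cells. Of 15 stroma and endothelium markers with a probe set, 14 did not reach a ratio of 1 on 2 arrays, among them Col1a1, Dcn and Pecam1, and the 1 tested had ratios of 0.963 to 1.27 in naive cells, 0.829 to 0.916 at day 7 and 0.921 to 1.23 at day 28.

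The 6 other members of the binding protein family did not share the Igfbp4 pattern in size. Their 9 probe sets had ratios from 0.288 to 1.752 over the 8 arrays, and each spanned between 0.22 and 1.44 log2 units, against 5.73 to 8.23 for the 4 Igfbp4 probe sets with large differences. The median span of all tested probe sets was 1.86. Igfbp2, Igfbp3 and Igfbp7 passed the filter by 1 probe set each, and 0 of the 3 were called in any comparison. Igfbp3, the main IGF carrier of serum, had a log2 difference of -0.56 ± 0.30 at day 7 against naive (SE, limma adjusted p = 0.383) and ratios of 0.759, 0.964 and 0.856 at day 7 and 1.009, 1.132 and 1.752 in naive cells. The day 7 values lay below the naive values without overlap. For Igfbp2 the difference was -0.23 ± 0.28 (adjusted p = 0.681), and for Igfbp7 -0.02 ± 0.28 (adjusted p = 0.971). Igfbp1, Igfbp5 and Igfbp6 were too dim to be tested, with 0.495 to 0.596 for Igfbp1 and 0.544 to 0.634 for Igfbp6 over all arrays. One dim probe set of Igfbp5, 1452114_s_at, reached 0.961 on naive replicate 1 and lay between 0.489 and 0.533 on the others.

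**Figure D2:**
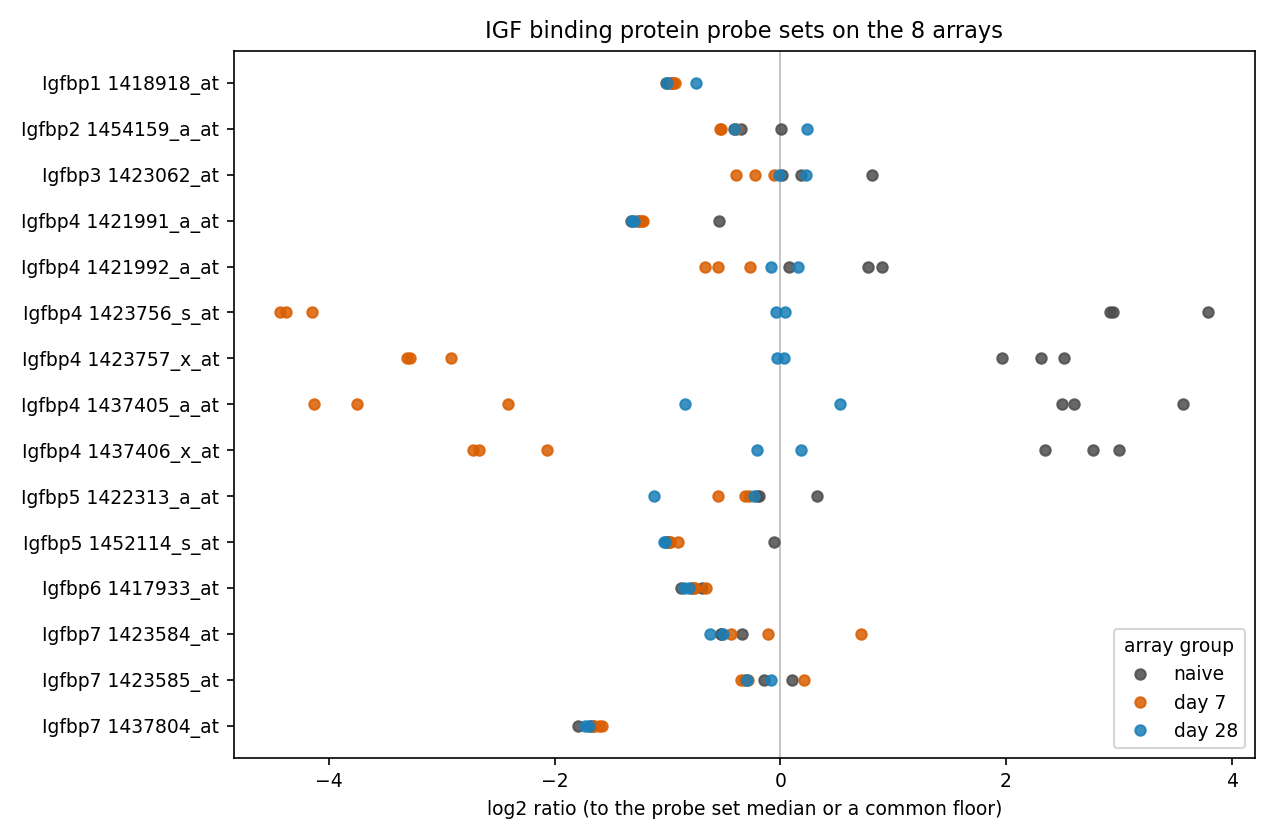
Log2 ratio (horizontal axis) of every probe set of the IGF binding protein genes (rows) on the 8 arrays, coloured by group (naive, day 7, day 28). 4 of the 6 Igfbp4 rows span 5.73 to 8.23 log2 units, whereas the rows of other members span at most 1.44.

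The rest of the IGF system showed no call. Genes were tested with limma on the mean log2 ratio of their tested probe sets over 7825 genes, with adjusted p under 0.05 as the threshold. Of all genes, 1.75% were called at day 7 against naive (1.57% higher, 0.179% lower), 0.524% at day 28 against naive (0.511% higher, 0.0128% lower) and 1.71% at day 28 against day 7 (0.524% higher, 1.19% lower). Of 50 listed genes besides Igfbp4, 44 had a probe set with 1 symbol and 26 were tested. At day 7 against naive 0 of the 26 passed in limma, with 4 higher and 2 lower at an unadjusted p under 0.05, and a median log2 difference of -0.17 beside 0.12 for all genes. At day 28 against naive 0 passed (0 higher and 1 lower unadjusted, median -0.11 beside -0.05), and at day 28 against day 7 0 passed (2 higher and 2 lower unadjusted, median -0.15 beside -0.18). The share of all genes under the unadjusted threshold was not counted, here and for the lists below. Nothing is read from the unadjusted counts.

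By role, the ligand Igf1 had a log2 difference of 0.12 ± 0.26 at day 7 against naive (limma adjusted p = 0.833), by 1 of its 3 probe sets, and Igf2 was too dim to be tested. The signalling receptor Igf1r had -0.42 ± 0.38 (adjusted p = 0.597), Igf2r, which takes up and clears IGF-II, had -0.81 ± 0.44 (adjusted p = 0.394), and the insulin receptor Insr had 0.11 ± 0.31 (adjusted p = 0.876). Pappa and Stc1 were too dim to be tested. Stc2, the other stanniocalcin, had log2 ratios of 1.28, -0.64 and 0.61 at day 7 and -1.03, -1.05 and -1.12 in naive cells, a difference of 1.49 ± 0.46 (adjusted p = 0.16). All 3 day 7 arrays lay above the naive arrays, with day 7 replicate 2 nearest to them. Without that array the difference was 2.01 and passed (adjusted p = 0.0481). Ctsd, a lysosomal protease able to cleave IGF binding proteins, had -1.67 ± 0.46 (adjusted p = 0.127), and Foxo1, a transcription factor that IGF and insulin signalling keeps out of the nucleus, had -1.34 ± 0.35 (adjusted p = 0.115). The kinase Pdpk1 had 1.13 ± 0.29 (adjusted p = 0.112) and Rheb, the activator of the kinase mTOR, 1.82 ± 0.61 (adjusted p = 0.2). The adaptors Irs1, Irs2 and Grb10 were too dim to be tested. Without naive replicate 1, 4 genes of the list passed at day 7: Ctsd was lower (-2.04), and Pdpk1 (1.25), Pik3ca (1.63) and Rheb (2.43) were higher. In that fit 1121 of all genes were called, against 137 with all arrays. Day 7 against naive cannot be told apart from the spike-in split there. Whether the list exceeded this background was not tested. Foxo3 had log2 ratios of -0.13 and 3.48 at day 28 and between -0.60 and -0.27 at day 7. It passed (3.86) without day 28 replicate 1, a fit in which the remaining day 28 array is assumed to vary like the other groups.

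Of 29 Wnt pathway genes, 28 had such a probe set and 14 were tested, and 0 passed in limma in any comparison. At an unadjusted p under 0.05, 1 was higher and 1 lower at day 7 against naive, 2 were lower at day 28 against naive and 1 was higher at day 28 against day 7. Their median log2 difference was -0.24, -0.21 and -0.13 in these comparisons, beside 0.12, -0.05 and -0.18 for all genes. The co-receptor Lrp6 had -0.07 ± 0.44 at day 7 against naive (adjusted p = 0.942), Fzd8 was too dim to be tested, and the Wnt target Axin2 had 1.01 ± 0.60 (adjusted p = 0.432). Lef1, a nuclear effector of Wnt signalling that is also a naive T cell gene, had -3.11 ± 0.73 at day 7 (adjusted p = 0.0897) and -3.25 ± 0.82 at day 28 (adjusted p = 0.292), both against naive. Its log2 ratio was -0.10, -0.74 and -0.11 at day 7, -0.55 and -0.36 at day 28, and 0.88, 3.81 and 3.68 in naive cells, so that naive replicate 1 lay far below the other naive arrays. Without naive replicate 1, Lef1 passed in both comparisons (-4.07, adjusted p = 0.00231, and -4.20, adjusted p = 0.00618). In that day 28 fit 56 of all genes were called, against 41 with all arrays. Axin2 (1.77), Csnk1a1 (2.45) and Ctnnb1 (1.80) then passed as higher at day 7 against naive. In that day 7 fit 1121 of all genes were called, against 137 with all arrays. Day 7 against naive cannot be told apart from the spike-in split there. Naive replicate 1 itself had log2 ratios of 1.25 for Axin2, 0.38 for Csnk1a1 and 0.63 for Ctnnb1, above the other naive arrays. The part of the split in these calls was not tested. Axin2 (-1.45) also passed without naive replicate 1 at day 28 against day 7, where 532 of all genes were called.

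Igfbp4 lies between Top2a and Ccr7 on chromosome 11, genes with opposite signs of the day 7 difference from naive, of which that of Ccr7 passed the test. Of the 10 annotated genes on either side, 7 had probe sets and 6 were tested. At day 7 against naive 1 of the 6 fell, Ccr7, and 0 rose, where 0.179% of all genes were called lower. Ccr7, the receptor that draws naive T cells into lymph nodes, is the second annotated gene after Igfbp4, with Tns4, for which no probe set with 1 symbol was matched, between them. The log2 ratio of Ccr7 was -2.08, -1.36 and -1.65 at day 7 and 0.75, 4.01 and 3.74 in naive cells, without overlap, a difference of -4.53 ± 0.83 (limma adjusted p = 0.0403). On the day 28 arrays it was -0.76 and 0.50, also below every naive array, a difference of -2.97 ± 0.92 (adjusted p = 0.517). Naive replicate 1 was the lowest naive array for Ccr7 and the highest for Igfbp4. Ccr7 passed without naive replicate 1 at day 28 (-4.01, adjusted p = 0.022) and at day 7 (-5.57, adjusted p = 0.00263). In that day 28 fit 56 of all genes were called, against 41 with all arrays. In that day 7 fit 1121 of all genes were called, against 137 with all arrays. Day 7 against naive cannot be told apart from the spike-in split there. The day 7 call was lost when any other array was left out (adjusted p from 0.0746 to 0.176) and when the spike-in split was fitted as a term (-2.45, adjusted p = 0.216).

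On the other side, Top2a, the DNA topoisomerase of dividing cells, is the second annotated gene before Igfbp4. By 1 of its 2 probe sets its log2 ratio was 0.69, 1.37 and 1.70 at day 7 and -1.26, -1.73 and -2.79 in naive cells, a difference of 3.18 ± 0.62 (adjusted p = 0.052). All day 7 arrays lay above all naive arrays, but the difference did not pass. It passed without naive replicate 1 (3.51, adjusted p = 0.0189) and without either day 28 array (adjusted p = 0.0432). Without naive replicate 1, day 7 against naive cannot be told apart from the spike-in split, and 1121 of all genes were called. The other, dim probe set of Top2a had ratios of 0.81, 0.623 and 0.887 at day 7 and 0.705, 0.623 and 0.716 in naive cells. Cdc6, which loads the replicative helicase onto DNA, had 1.10 ± 0.46 (adjusted p = 0.283). Casc3, a component of the exon junction complex, had -0.94 ± 0.83 (adjusted p = 0.582), Smarce1, a chromatin remodelling subunit, 0.34 ± 0.39 (adjusted p = 0.669) and the keratin gene Krt25 -0.31 ± 0.26 (adjusted p = 0.569). At day 28, 0 of the 6 passed in limma against naive (0 higher and 1 lower at an unadjusted p under 0.05) and 0 against day 7 (0 higher and 1 lower).

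**Figure D3:**
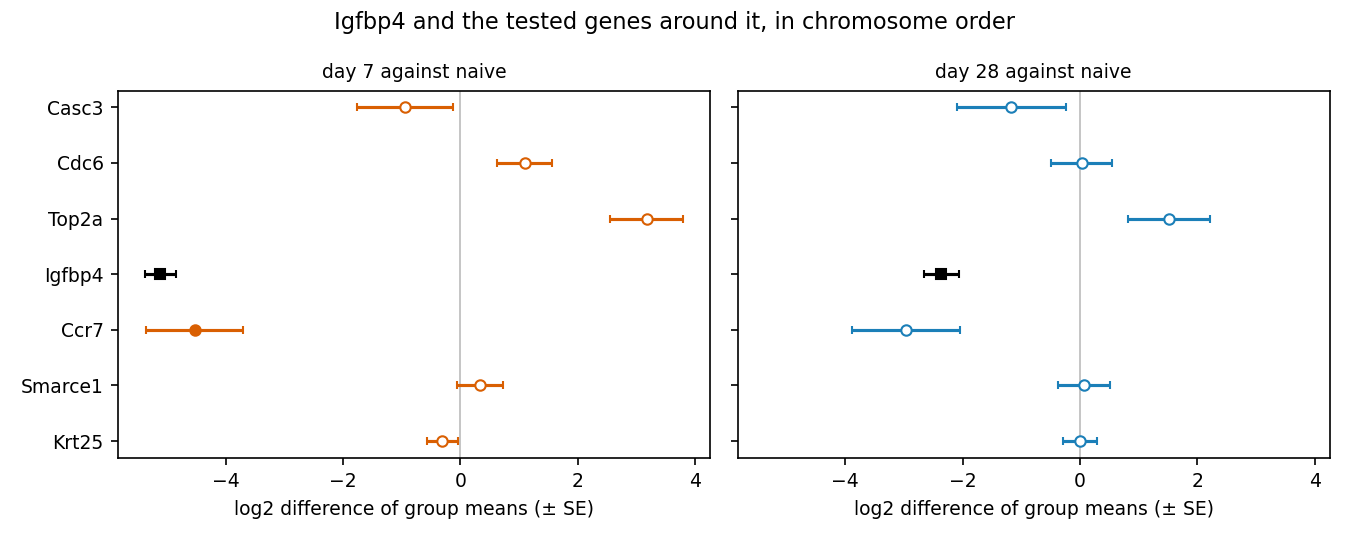
Log2 difference of group means with its SE (horizontal axis) for Igfbp4 (black square) and the 6 tested genes around it in chromosome order (rows), at day 7 against naive (left) and day 28 against naive (right). Filled circles passed limma at adjusted p under 0.05. Ccr7 at -4.53 is the only filled neighbour, Top2a lies at 3.18, and Igfbp4 is shown without a test.

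Other genes known from naive and resting T cells were read beside Igfbp4. Of 25 listed genes, 20 were tested. This list was written with earlier results of these data known and is no independent evidence of its direction. At day 7 against naive 2 of the 20 fell, Tdrp and Ccr7, 0 rose and 18 did not pass, where 0.179% of all genes were called lower. At an unadjusted p under 0.05, 10 were lower and 0 higher. The share of all genes under that unadjusted threshold was not counted. The median log2 difference was -0.84, beside 0.12 for all genes. Tdrp had log2 ratios of -1.86, -2.97 and -2.56 at day 7 and 1.23, 1.98 and 1.58 in naive cells, a difference of -4.06 ± 0.44 (adjusted p = 0.00695). Its adjusted p ran from 0.000495 to 0.127 over the alternatives tried, and it was lost only with the spike-in term. Il7r, the interleukin-7 receptor that sustains naive T cells, had -2.27 ± 0.58 (adjusted p = 0.109), Klf2, a factor that keeps T cells quiescent, -1.35 ± 0.46 (adjusted p = 0.205) and S1pr1, the receptor for exit from lymph nodes, -0.11 ± 0.73 (adjusted p = 0.944). Tcf7 had no probe set with 1 symbol on this array. Without naive replicate 1, 6 of the 20 passed as lower (Ccr7, Lef1, Tdrp, Dgka, Txnip and Klf2). In that fit 1121 of all genes were called in either direction, against 137 with all arrays. Day 7 against naive cannot be told apart from the spike-in split there. Whether the list exceeded this background was not tested. Il7r passed without naive replicate 3 (-2.96). A single member, Tdrp, passed when any one of naive replicate 2 and the day 7 and day 28 arrays was left out.

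Against naive, 0 of the 20 passed at day 28 in limma (2 higher and 4 lower at an unadjusted p under 0.05, median -0.26 beside -0.05 for all genes), and 2 passed without naive replicate 1, Ccr7 and Lef1. In that fit 56 of all genes were called, against 41 with all arrays. Against day 7, 0 passed at day 28 (8 higher and 0 lower unadjusted, median 0.87 beside -0.18). Without naive replicate 1, 4 rose at day 28 against day 7: Tdrp (2.32), Txnip (2.67), Klf2 (1.47) and Btg1 (1.62). In that fit 532 of all genes were called, against 134 with all arrays. Members differed in how they stood at day 28. Dgka, a diacylglycerol kinase that dampens T cell receptor signals, had 0.04 ± 0.82 at day 28 against naive and -2.64 ± 0.73 at day 7, and Txnip, which limits glucose uptake, had 0.35 ± 0.68 and -2.33 ± 0.61, and none of the 4 differences passed (adjusted p from 0.113 to 0.998). For Igfbp4 the same 2 differences were -2.36 and -5.11 as means over its tested probe sets.

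**Figure D4:**
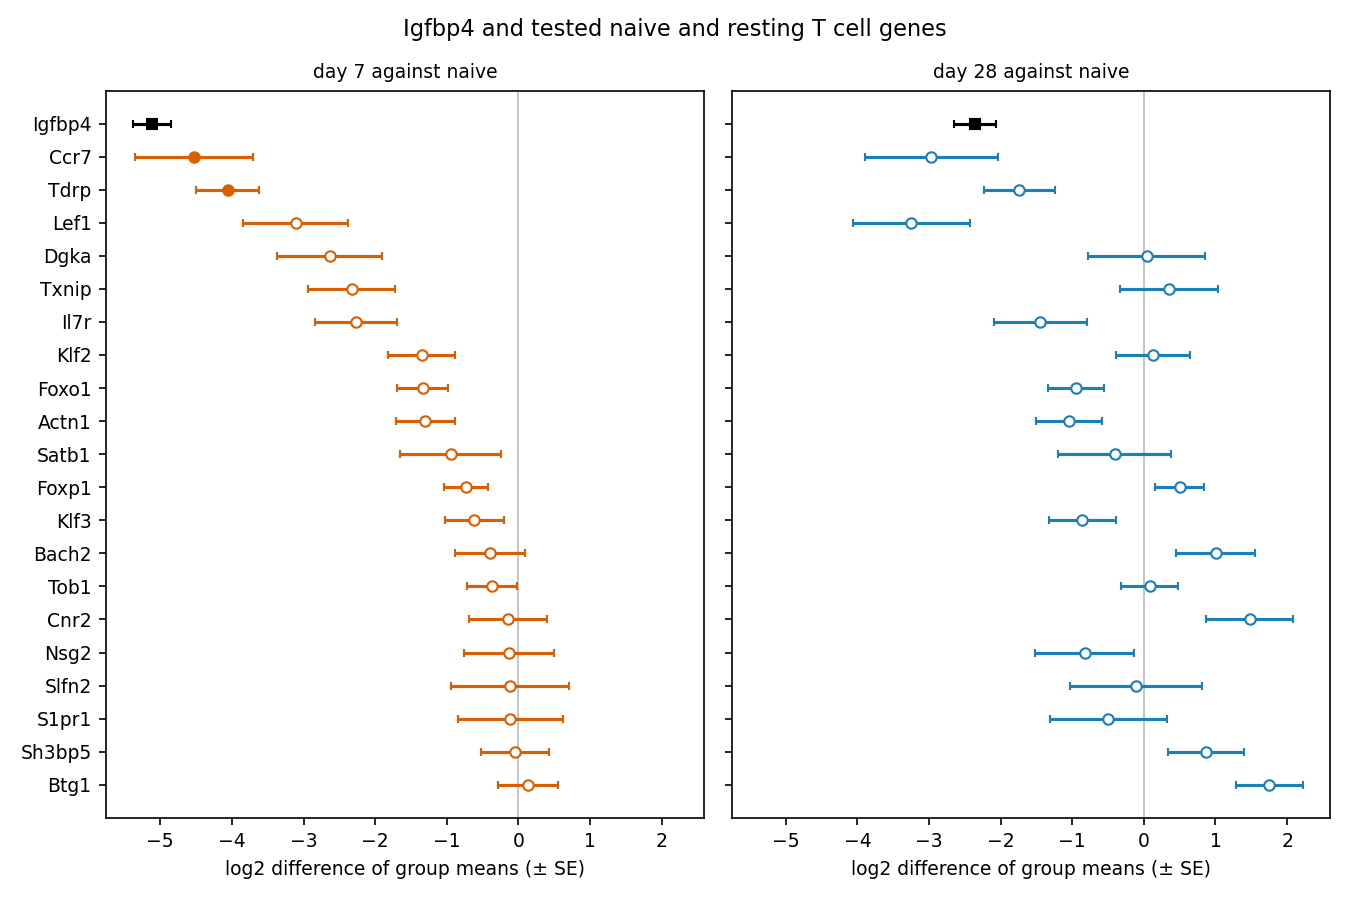
Log2 difference of group means with its SE (horizontal axis) for Igfbp4 (black square) and 20 tested naive and resting T cell genes (rows, ordered by day 7 difference), at day 7 against naive (left) and day 28 against naive (right). Filled circles, Ccr7 and Tdrp at day 7, passed limma at adjusted p under 0.05. Most day 7 points lie below 0, and at day 28 they lie on both sides of it.

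The genes whose profile was most like that of Igfbp4 were ranked by Pearson's r over the 8 arrays, against the mean of its 5 tested probe sets. Candidates were 1314 named genes with an SD of at least 1 on the log2 scale. The values share the same arrays and scaling, and 3 group levels on 8 arrays carry most of each r, so r is a description with no p. The highest r was 0.97 for Slfn8, a Schlafen family gene, followed by Tdrp (0.95), Rcsd1 (0.94), Arhgef18 (0.89), a guanine nucleotide exchange factor, Selplg (0.88), the selectin ligand PSGL-1, Ccr7 (0.87), Mfng (0.86), a glycosyltransferase that modifies Notch, Aldh2 (0.86), a mitochondrial aldehyde dehydrogenase, Esyt1 (0.86), a tether between membranes, and Itgb7 (0.84), an integrin chain of gut-homing lymphocytes. Slfn8 had mean log2 ratios of 1.16 in naive cells, -1.94 at day 7 and -0.01 at day 28. Arhgef18 and Aldh2 had day 28 means of 0.57 and 0.21, beside naive means of 0.76 and 0.14, and their day 28 and naive arrays overlapped. The day 28 and naive arrays also overlapped for Rcsd1, Esyt1 and Itgb7. Thus 5 of these 10 genes lacked the separation of day 28 from naive seen in the Igfbp4 mean, which its probe set 1421992_a_at also lacked. Of all 13042 tested probe sets, 9.88% had day 28 below naive without overlap. The 10 genes were picked for likeness to Igfbp4, so nothing is read from this count.

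High correlations were more often negative than positive. Of the candidates, 46 had r of -0.9 or lower and 3 had r of 0.9 or higher. Calls over all 7825 genes were also uneven, with 1.57% higher and 0.179% lower at day 7 against naive. Nothing about Igfbp4 is read from the uneven counts of r. S100a4, a calcium-binding protein of memory and effector T cells, had r = -0.99, with log2 ratios of -2.31, -2.70 and -2.93 in naive cells, 2.20, 2.06 and 2.30 at day 7, and -0.35 and 0.28 at day 28. Its 3 groups did not overlap and stood in the reverse order of those of Igfbp4. The others were S100a6 (-0.97), also a calcium-binding protein, Cdk1 (-0.97), the kinase that drives mitosis, Casp4 (-0.97), an inflammatory caspase, Cxcr3 (-0.97), the receptor for interferon-induced chemokines, Bhlhe40 (-0.96), a transcription factor, Plxnc1 (-0.95), a semaphorin receptor, Nrp1 (-0.95), a co-receptor of semaphorins, Cst7 (-0.95), a cystatin of cytotoxic lymphocytes, and Pdcd1 (-0.95), the inhibitory receptor PD-1. Of these 20 genes, 7 were still among the 20 without naive replicate 1, 9 by Spearman's rank correlation and 6 against probe set 1421992_a_at alone. With any other array left out, between 14 and 18 were.

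**Figure D5:**
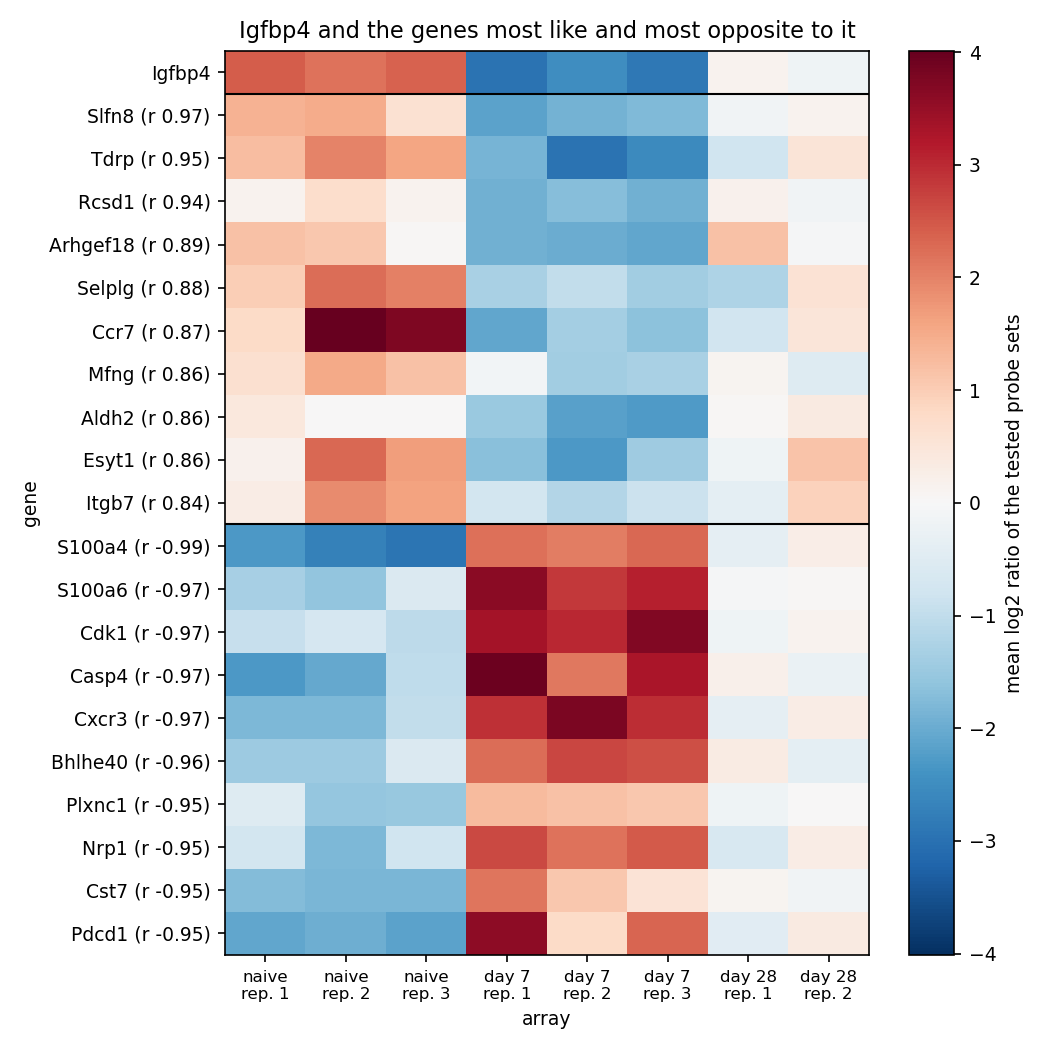
Mean log2 ratio (colour) of Igfbp4 (top row), the 10 named genes with the highest and the 10 with the lowest Pearson's r to it (rows, r in the label) on the 8 arrays (columns: naive, day 7, day 28). Igfbp4 and S100a4 form opposite patterns over the groups, whereas Ccr7 is lower on naive replicate 1 (0.75) than on the other naive arrays (4.01 and 3.74).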

How the data were processed

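Lymph node RNA of B10.BR mice was measured on 8 Affymetrix arrays. The deposited table holds 22690 probe sets as a linear ratio, from 0.0153 to 117. GCRMA is named per the submitters' processing notes; the scaling is not given in the sources used here. The scaling of each ratio was read from the deposited values: 47.9% of probe sets have a median of 1 over the 8 arrays and none a higher one. Arrays carry no depth, and their number limits the precision.

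Ratios were turned to log2. The filter, 2 or more arrays at a ratio of 1 or above, kept 13042 of 22626 probe sets without controls. Probe sets with 1 symbol (20380; 691 had several and 1555 none) were named by the array annotation and averaged per gene, giving 7825 genes. limma 3.58.1 in R 4.3.3 fitted 1 mean per group over the 8 arrays, two-sided, with Benjamini-Hochberg adjustment over all genes. The fit was tested on simulated data. Neighbours and the promoter came from RefSeq GRCm38.p6, which matched Igfbp4; the arrays' own build is not given, so no other coordinates were used. Genes were named by rule: Igfbp4, its tested neighbours, called list members, fixed IGF, Wnt and naive T cell genes, and the 10 highest and 10 lowest correlations, leaving out receptor segments and unnamed genes. Other list genes named were chosen after their values were seen. The members and lists were chosen with earlier results of these data known. Replicate numbers do not pair the arrays by any label. Alternatives tried were other filters, scalings, variance models, a probe set per gene, array weights, a replicate block, a spike-in term and leaving out each array.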

Additional observations from a re-analysis of the deposited data

How the results depend on the processing

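The Igfbp4 mean over tested probe sets kept its direction in each comparison under the alternatives run for it (all probe sets, quantile normalization, median centring, arrays of 1 spike-in set where these held both groups, the replicate block, T cell markers subtracted and each array left out). Its log2 difference was -5.11, -2.36 and 2.75 (day 7 against naive, day 28 against naive, day 28 against day 7), and was -4.29, -2.01 and 2.28 over all 6 probe sets and -6.09, -2.78 and 3.32 after quantile normalization. Less the T cell marker median, an alternative chosen after seeing the data, it was -4.73, -1.84 and 2.89. With each array left out it ran from -5.26 to -5.02, from -2.52 to -2.21 and from 2.60 to 2.91. Only the dim probe set 1421991_a_at turned in sign: at day 7 against naive (-0.19) its log2 difference was 0.0296 among low spike-in arrays and ran from -0.33 without naive replicate 3 to 0.0596 without naive replicate 2, and at day 28 against day 7 (-0.07) it was 0.43 after quantile normalization and 0.0633 after median centring. Of the 20 genes ranked by likeness, 9 were shared by Spearman's rank correlation, 10 with no filter on spread, 6 against 1421992_a_at alone, and 7 to 18 with each array left out. Median centring gave -5.25 at day 7 against naive, beside -5.11 without it.

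Counts of genes called moved widely, and the cause was not tested. At day 7 against naive (137) they were 70 with no filter, 65 with trended and robust variance, 84 with only the groups compared, 47 with the replicate block, 1852 with array weights (whose estimation did not fully converge), 18 with the spike-in term and 25 to 1121 with each array left out. For day 28 against naive (41) they were 27 with the stricter filter, 17 with trended variance, 7 with only the groups compared, 10 with the replicate block and 11 to 56 with each array left out. For day 28 against day 7 (134) they were 74, 56, 445 and 13 under those 4 settings, 1168 with array weights, 3 with the spike-in term and 15 to 532 with each array left out. In this comparison quantile normalization gave 196 and median centring 145. At day 28 against naive, array weights gave 47 and the spike-in term 56. Median centring gave 140 at day 7 against naive. The replicate numbers share only a number: same-numbered arrays of different groups had correlations of deviations from -0.37 to 0.15.

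Calls in the lists moved as follows. At day 7 against naive, array weights gave 8 IGF system genes, 4 Wnt pathway genes, 10 naive and resting T cell genes and 3 neighbours. The naive and resting count (2) was 1 with a single probe set per gene, no filter, trended variance or only the groups compared, and 0 with the spike-in term. The neighbour count (1) was 0 with a single probe set per gene, no filter, trended variance or the spike-in term, and 2 with median centring. With each array left out the counts ran from 0 to 4 (IGF), 0 to 4 (Wnt), 1 to 6 (naive and resting) and 0 to 2 (neighbours). At day 28 against naive (0 in each list) the counts were 1 Wnt gene and 1 naive and resting gene with array weights, 1 Wnt gene, 2 naive and resting genes and 1 neighbour with the spike-in term, and with each array left out 0 to 1 (Wnt), 0 to 2 (naive and resting) and 0 to 1 (neighbours). At day 28 against day 7 (0 in each list) only the groups compared gave 1 IGF and 3 Wnt genes, array weights gave 3 IGF genes, 1 Wnt gene, 7 naive and resting genes and 1 neighbour, quantile normalization gave 2 and median centring 1 naive and resting gene, and with each array left out the counts were 0 to 1 (IGF), 0 to 1 (Wnt) and 0 to 4 (naive and resting).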
